A study of Homo sapiens with 12 samples.

Results

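GAS5, ZFAS1, DANCR, EPB41L4A-AS1 and the genes named SNHG with a number are host genes of small nucleolar RNAs (snoRNAs), and their expression was described in cultured tubular cells treated with 3 nephrotoxic drugs. They were chosen by symbol alone, which gave 29 of the 58735 genes of the count table under 28 symbols, since SNHG28 stands for a pair of gene identifiers. One of that pair, ENSG00000256029, is annotated as protein-coding, and the other 28 genes are annotated as long non-coding RNA genes (lncRNAs). At least 1 read was counted for 27 of the 29 genes, while SNHG27 and the SNHG28 of identifier ENSG00000188004 were at 0 in all 12 samples.

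The RNA came from HK-2, human proximal tubular cells that were immortalized as a line, in 4 groups of 3 samples. Controls were given water. For 48 h, the iohexol group received this iodine-based contrast agent at 75 mg I/mL, the cisplatin group this DNA-damaging platinum drug at 5 μM, and the vancomycin group this glycopeptide antibiotic at 4 mM. The labels do not say that the 3 samples of a group came from separate cultures, so that the p-values measure the spread between these samples, which may be technical. All samples are of 1 cell line, without the other cells of a kidney. Of 10 proximal tubule markers, 5 reached 1 CPM (the usual unit of read counts relative to library size) in the control group, with PAX8 highest at 372 CPM, while LRP2, the endocytic receptor megalin, had a count of 0 in all control samples. Among 8 markers of simple epithelium 7 reached 1 CPM. Of markers of other cell types, 2 of 4 for fibroblasts (COL1A1 and DCN), 1 of 4 for endothelium (PECAM1) and 0 of 4 for leukocytes reached 1 CPM in the control group. Across the control, iohexol, cisplatin and vancomycin groups the mean was 30.6, 23.6, 48.7 and 41.8 CPM for COL1A1, 12.3, 6.22, 2.70 and 30.5 CPM for DCN, 1.33, 3.80, 1.85 and 0.0831 CPM for PECAM1, and 0.790, 1.71, 1.26 and 2.83 CPM for the leukocyte marker CD14, and their part in the results below was not tested.

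The total count per sample lay between 14057282 and 18177109, and 3 counts, the smallest number read here as detected, stood for 0.177 to 0.218 CPM. That floor covers counting error only. CPM values, the floor included, were scaled to the total count times the TMM factor, which estimates how much of a library is taken up by a few genes that differ. Vancomycin samples had the lowest factors (0.885 to 0.897), followed by the controls (0.961 to 0.976) and iohexol samples (1.02 to 1.04), and cisplatin samples the highest (1.12 to 1.13).

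Most snoRNAs of human cells are cut from introns of host genes and guide the chemical modification of ribosomal RNA, box C/D snoRNAs the methylation of riboses and box H/ACA snoRNAs the conversion of uridine to pseudouridine. Small Cajal body RNAs (scaRNAs) do the same for spliceosomal RNAs. In the SNHG class the spliced exons of the host encode no known abundant protein, many hosts begin with the pyrimidine tract of 5′ TOP transcripts that ribosomal protein mRNAs also carry, and several spliced hosts are kept low by nonsense-mediated decay, which is coupled to translation. Their level in a cell therefore reflects both transcription and turnover of the spliced RNA, and poly(A)-selected libraries measure chiefly the spliced host and not the mature snoRNA.

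The start regions of the hosts are printed because they show the pyrimidine tract by which hosts resemble ribosomal protein genes, and a TATA-like sequence that some of them share. RefSeq promoters were matched for 23 of the 29 genes. A C followed by at least 4 bases that were each C or T, read on the gene's strand and beginning exactly at the annotated start, was found in 6 of these 23 promoters (26.1%), against 4.1% of 35116 promoters, 3.3% of 12917 lncRNA promoters and 56.1% of the promoters of 82 cytosolic ribosomal protein genes. The 6 genes were ZFAS1, SNHG4, SNHG5, SNHG12, SNHG18 and SNHG19. With the tract allowed to begin within 10 bases of the start, the shares were 60.9% of the hosts and 33.5% of all promoters. TATAA, read on the gene's strand and beginning 40 to 20 bases before the start, was found in 6 of the 23 promoters (26.1%), against 3.9% of all promoters and 2.2% of lncRNA promoters, and the search for these letters was chosen after the sequences had been seen. The windows below hold 40 bases before and 30 from the annotated start of RefSeq, on GRCh38.p14, with the 41st base as the start. They are ZFAS1 at chr20:49278602-49278671 (plus strand), SNHG5 at chr6:85678704-85678773 (minus), SNHG12 at chr1:28581844-28581913 (minus), SNHG19 at chr16:2155329-2155398 (minus), SNHG7 at chr9:136728155-136728224 (minus), SNHG8 at chr4:118278722-118278791 (plus), SNHG4 at chr5:139274061-139274130 (plus), SNHG16 at chr17:76557724-76557793 (plus) and DANCR at chr4:52712354-52712423 (plus). Capitals mark TATAA and the tract at the start.
ZFAS1: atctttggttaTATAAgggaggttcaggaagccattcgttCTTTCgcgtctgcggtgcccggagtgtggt
SNHG5: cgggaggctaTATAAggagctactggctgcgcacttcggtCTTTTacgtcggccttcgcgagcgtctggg
SNHG12: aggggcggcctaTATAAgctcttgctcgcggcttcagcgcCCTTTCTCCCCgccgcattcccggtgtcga
SNHG19: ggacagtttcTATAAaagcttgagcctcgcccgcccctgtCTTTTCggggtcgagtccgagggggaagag
SNHG7: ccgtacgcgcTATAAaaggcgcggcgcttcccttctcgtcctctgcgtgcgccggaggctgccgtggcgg
SNHG8: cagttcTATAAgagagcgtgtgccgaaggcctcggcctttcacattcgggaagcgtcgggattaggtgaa
SNHG4: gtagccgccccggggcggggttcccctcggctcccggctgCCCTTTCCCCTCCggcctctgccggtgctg
SNHG16: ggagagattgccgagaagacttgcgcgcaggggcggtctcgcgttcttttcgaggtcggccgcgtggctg
DANCR: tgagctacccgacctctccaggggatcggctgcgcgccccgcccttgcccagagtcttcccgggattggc

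ZFAS1, SNHG5, SNHG12 and SNHG19 held both features in these windows, SNHG7 and SNHG8 held TATAA without a tract at the exact start, and SNHG4 held the tract without TATAA. In GAS5 the tract was not at the RefSeq start, but 6 of its 29 transcripts in GENCODE release 29 began with it. The first 30 bases of 1 of these, GAS5-210, are shown with the tract in capitals.
GAS5: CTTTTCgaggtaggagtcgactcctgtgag

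Over all transcripts of GENCODE release 29, 14 of the 29 hosts had at least 1 transcript that began with the tract, and 3861 of 58676 annotated genes did. A gene with more annotated transcripts can match more often, and this comparison was not matched for their number. A match of letters is a description of the sequence and not a measured start site.

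RefSeq places 140 snoRNA genes within the span of these hosts, matched by position without regard to strand, and 24 of the 29 hosts hold at least 1. SNHG14 on chromosome 15 holds 83 of them, of which 48 belong to the SNORD115 and 30 to the SNORD116 cluster, GAS5 holds 11 and SNHG1 holds 9. A snoRNA of each class is shown for 4 hosts with large changes or a place in the rule by name, from GENCODE release 29 on GRCh38. SNORD12C lies in ZFAS1 at chr20:49278940-49279028 (plus strand) and SNORD50B in SNHG5 at chr6:85677589-85677658 (minus), with the C box TGATGA and the D box CTGA in capitals. SNORA26 lies in DANCR at chr4:52713249-52713370 (plus) and SNORA13 in EPB41L4A-AS1 at chr5:112161485-112161617 (plus), with the ACA box in capitals.
SNORD12C: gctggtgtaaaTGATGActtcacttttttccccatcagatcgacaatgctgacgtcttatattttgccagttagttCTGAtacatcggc
SNORD50B: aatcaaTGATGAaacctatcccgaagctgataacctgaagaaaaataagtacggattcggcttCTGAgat
SNORA26: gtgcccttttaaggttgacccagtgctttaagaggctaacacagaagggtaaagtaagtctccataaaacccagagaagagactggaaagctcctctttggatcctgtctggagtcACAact
SNORA13: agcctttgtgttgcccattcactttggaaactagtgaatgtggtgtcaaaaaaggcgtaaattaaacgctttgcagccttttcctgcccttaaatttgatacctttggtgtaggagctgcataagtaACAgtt

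Many hosts overlap other genes, which bears on their counts because the NEBNext kit named in the labels does not by itself mark the strand and the setting used for counting is not given in the sources used here. At least 10% of the exonic bases were overlapped by another annotated gene in 18 of the 29 hosts, and 4 hosts had no overlapped base. The share was 49.6% for EPB41L4A-AS1, 46.9% for ZFAS1, 36.4% for SNHG6, 33.4% for SNHG16, 20.1% for SNHG10 and 10.7% for SNHG20, small RNA genes within the exons included. It was 1.2% for GAS5 and 2.5% for SNHG5. Reads of a host and of such a partner cannot be told apart where they overlap, so values of most overlapping genes other than small RNAs are given below with the hosts that were called, and their part in the host's counts was not tested. Of those not taken up again, the MATR3 locus over SNHG4 did not exceed 0.161 CPM in any group mean, and AC124312.1 and AC124312.3 within SNHG14 had means of 0.

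Per kilobase of exon, the hosts differed widely in level in the control group. GAS5, the growth arrest-specific host of C/D snoRNAs, was highest at 47.3 CPM per kb, followed by SNHG6 at 41.6, SNHG8 at 20.2, ZFAS1 at 13.8, SNHG1 at 13.8, SNHG16 at 12.3 and SNHG3 at 11.7 CPM per kb. The level was 10.4 CPM per kb for DANCR and 3.11 for EPB41L4A-AS1. SNHG14, whose exons span 43324 bases, was at 1.57 CPM per kb, and SNHG9, SNHG26 and SNHG20 were at 1.01, 0.955 and 0.898 CPM per kb. SNHG21, SNHG22 and SNHG25 held 80, 31 and 29 counts in all over the 12 samples and were not tested in any comparison.

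The 29 hosts together took up more of the library with cisplatin and vancomycin than in the control group. Their summed level was 745, 724 and 730 CPM in the control samples, 717, 689 and 711 CPM with iohexol, 858, 873 and 888 CPM with cisplatin, and 858, 1105 and 965 CPM with vancomycin. Every iohexol sample lay below and every cisplatin and vancomycin sample above the control samples, and vancomycin replicate 1 lay within the range of the cisplatin group. GAS5 alone made up 23.4% of the summed counts in the control group, 19.5% with iohexol, 20.3% with cisplatin and 30.8% with vancomycin (means, n = 3). Without scaling by the TMM factors, the hosts held 0.0710 ± 0.00131% of all counts in the control group, 0.0726 ± 0.00118% with iohexol, 0.0982 ± 0.00157% with cisplatin and 0.0870 ± 0.0104% with vancomycin (SD, n = 3). The order of the control and iohexol groups was thus not the same on both scales. Leaving out GAS5, this share was 0.0546, 0.0528 and 0.0556% in the control samples and 0.0772, 0.0781 and 0.0793% with cisplatin. It was 0.0594, 0.0573 and 0.0589% with iohexol and 0.0539, 0.0674 and 0.0592% with vancomycin, where replicate 1 lay within the control range. In bulk RNA, fewer cells that express a gene and less of its RNA per cell cannot be told apart.

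**Figure D1:**
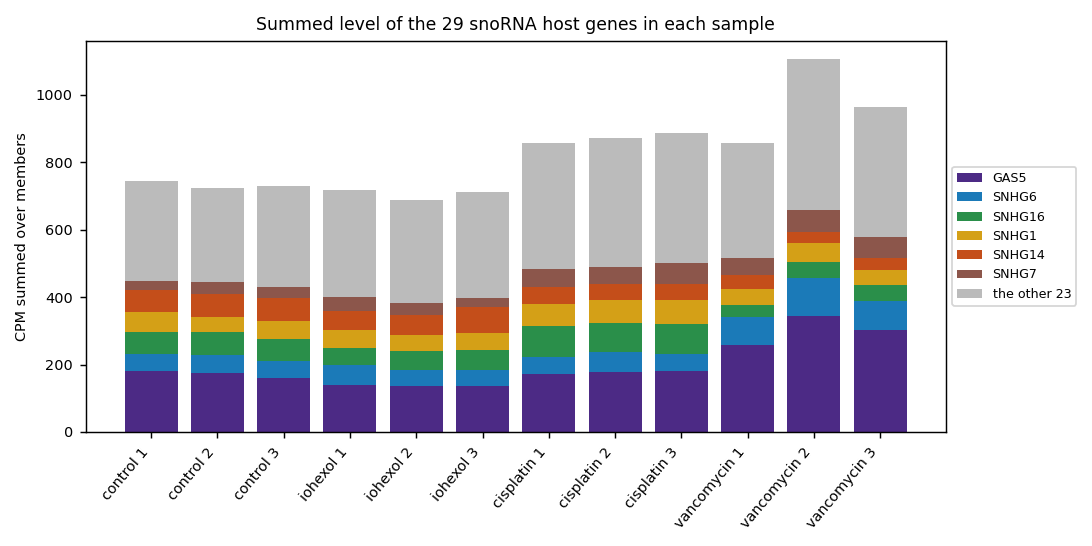
Stacked bars give the level in CPM, from 0, of the 6 most abundant hosts and of the other 23 in each of the 12 samples. GAS5, the lowest segment, reached 258 to 343 CPM in the vancomycin samples and 160 to 181 CPM in the control samples.

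The difference of each drug group from the controls was tested by edgeR's quasi-likelihood test across all genes, and a gene was called at a Benjamini-Hochberg adjusted p under 0.05. Differentially expressed genes (DEGs) were called genes whose log2 fold change was also beyond 1 in either direction. The filter on low counts kept 23 hosts with iohexol, 23 with cisplatin and 24 with vancomycin, and 5 of the 29 entered none of these fits. The 3 comparisons share the control samples, so their values are set side by side and no overlap between them was tested. Of the 23 hosts tested with all 3 drugs 22 were called with at least 1 drug, and the exception was SNHG18, with log2 fold changes of 0.09, 0.01 and 0.07. The share of all genes called with at least 1 drug was not computed, so nothing is read from the 22. By drug, 29.2% of all genes were higher and 30.6% lower with cisplatin, 29.0% and 28.8% with vancomycin, and 11.2% and 9.77% with iohexol. The 22 include SNHG9, which passed the filter only together with drug samples.

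With cisplatin the hosts were mostly higher. 13 of the 23 tested were called higher, against 29.2% of the 15876 genes tested, and 1 was called lower, against 30.6%. The DEGs were SNHG9, SNHG26, SNHG10 and SNHG17, all higher, while 7.62% of all genes were higher DEGs and 8.72% lower DEGs. SNHG9 is counted in the 13 and among the DEGs, but it passed the filter only together with drug samples. DESeq2 did not call it (adjusted p = 0.158). With 10 counts required in every sample, 12 of 22 hosts tested were higher and 3 were DEGs. The median log2 fold change of the hosts tested was 0.41, and that of all genes was 0.01. SNHG7, SNHG11 and SNHG20 were higher by 0.87, 0.89 and 0.96 on the log2 scale without passing the limit of a DEG. SNHG1, SNHG4, SNHG5, SNHG15, SNHG16 and DANCR were called with smaller changes of 0.37 to 0.57. The host called lower was SNHG14, the long imprinted transcript that carries the SNORD115 and SNORD116 clusters, at 66.4, 70.5 and 67.5 CPM in the control samples and 49.3, 46.4 and 48.7 CPM with cisplatin, with a log2 fold change of -0.50 ± 0.07 (SE). UBE3A, which overlaps SNHG14 on the other strand and was at 94.0 CPM in the control group, was not called with cisplatin (-0.08), and neither was SNRPN on the same strand (-0.001). The most abundant host, GAS5, was not called (0.04 ± 0.06), and neither were ZFAS1 (-0.05 ± 0.10) and SNHG6 (0.06 ± 0.09). Scaling by library size alone raised the median of all genes by 0.22 and then called 19 hosts higher, GAS5 (0.26, adjusted p = 0.00124) and SNHG6 (0.27, adjusted p = 0.00945) among them, and 1 lower, with 68.1% of all calls higher against 48.9% under TMM. Without control replicate 3 there were 2 hosts called lower and 7 DEGs in place of 4.

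With vancomycin the hosts moved in both directions. 11 of the 24 tested were called higher, against 29.0% of the 15819 genes tested, and 6 were called lower, against 28.8%. SNHG5, SNHG9, SNHG15 and SNHG19 were higher DEGs, which 10.8% of all genes were, and SNHG4 and SNHG26 were lower DEGs, which 7.65% of all genes were. SNHG26, counted in the 6 and among the DEGs, passed the filter only together with the control samples, where it was high. SNHG9 is counted in the 11 and among the DEGs, but it passed the filter only together with drug samples. Its call held in 10 of 14 alternatives, and DESeq2 did not make it (adjusted p = 0.276). The median was 0.16 over the hosts and -0.01 over all genes, but that of the hosts had an SD of 0.302 over the 3 vancomycin samples and was 0.403 without vancomycin replicate 1 and 0.051 without vancomycin replicate 2. GAS5, ZFAS1, EPB41L4A-AS1, SNHG6, SNHG7, SNHG8 and SNHG17 were higher by 0.53 to 0.98. SNHG3, SNHG14, SNHG16 and SNHG20 were lower, with log2 fold changes of -0.60, -0.97, -0.67 and -0.80. UBE3A, the gene on the other strand of SNHG14, was lower as well (-0.55, adjusted p = 7.08e-05), and so was RCC1, which overlaps SNHG3 on the same strand and was at 66.8 CPM in the control group (-0.25, adjusted p = 0.0454).

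With iohexol the shares of hosts called lay close to those of all genes. DANCR, SNHG17 and SNHG20 were called higher, 3 of 23 against 11.2% of the 15657 genes tested, and GAS5 and SNHG12 lower, 2 of 23 against 9.77%. No host was a DEG, which 4.02% of all genes were in the higher and 1.25% in the lower direction. The median was 0.09 over the hosts and 0.01 over all genes, and that of the hosts was 0.014 without control replicate 3 and 0.017 without iohexol replicate 1. The log2 fold change ran from -0.59 for SNHG12 to 0.78 for SNHG20. At an unadjusted p under 0.05 there were 5 hosts higher and 3 lower and again 0 DEGs, and DESeq2 and limma-voom each called 3 higher, 2 lower and 0 DEGs. Scaling by library size alone called 5 hosts higher and 1 lower, with 67.5% of all calls higher against 53.4% under TMM. Without iohexol replicate 3 the count of higher hosts was 5, and 1 host was lower without control replicate 1, control replicate 2, iohexol replicate 1 or iohexol replicate 2.

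**Figure D2:**
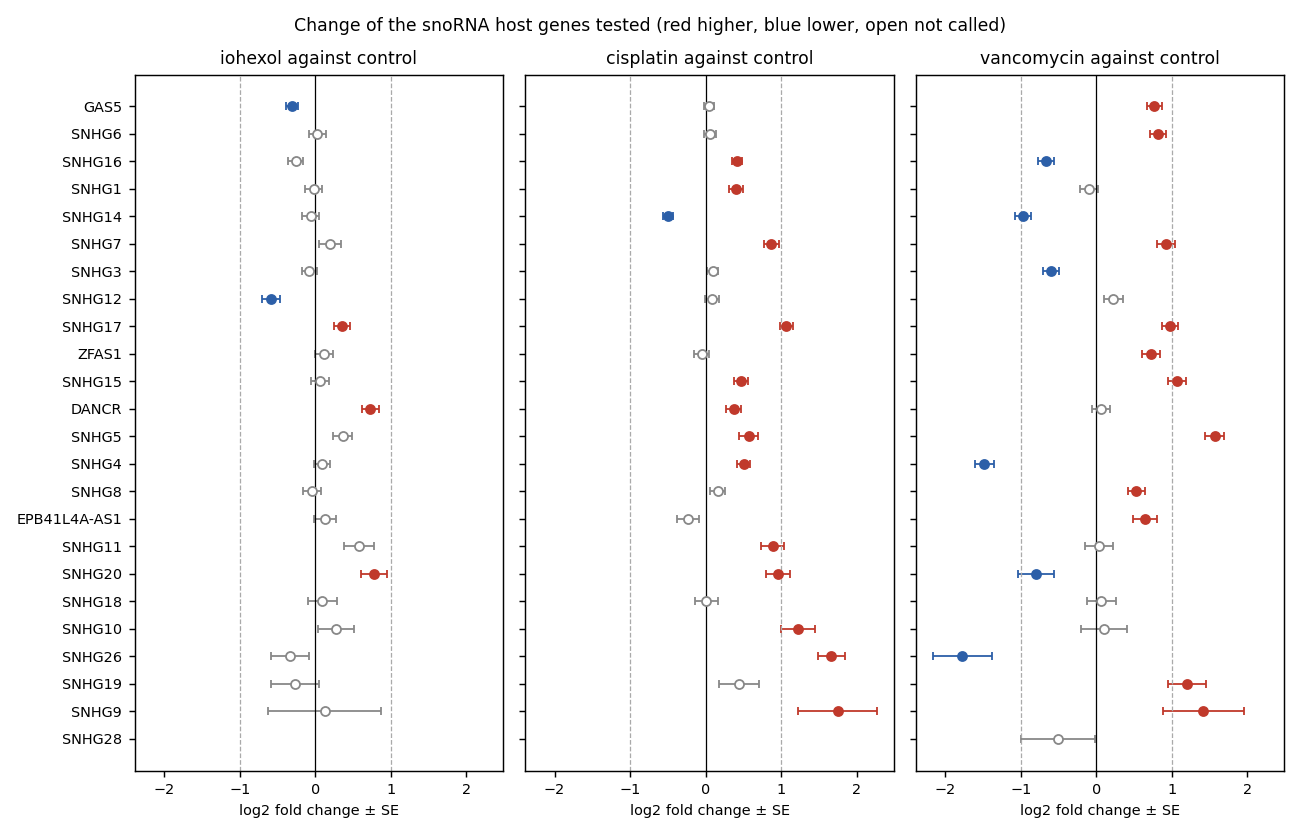
Points give the log2 fold change against the control group with its SE for each host tested, from the most abundant (top) to the least, with iohexol, cisplatin and vancomycin from left to right and dashed lines at -1 and 1. Filled red points were called higher, filled blue points lower, and open points were not called. 13 red points stand in the cisplatin panel, and 6 blue ones in the vancomycin panel.

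Compared directly in a fit of all 12 samples, the drugs differed in most hosts tested. With vancomycin against cisplatin, 8 of 23 were higher, against 34.7% of the 17073 genes tested, and 10 were lower, against 30.0%. The largest difference was that of SNHG26, with a log2 fold change of -3.40 ± 0.29, followed by SNHG4 (-1.94 ± 0.11), SNHG20 (-1.72 ± 0.19), SNHG10 (-1.08 ± 0.28), SNHG5 (1.04 ± 0.13) and SNHG16 (-1.03 ± 0.10). SNHG26 had few counts with vancomycin and passed the filter of this fit through the other groups. With cisplatin against iohexol 12 of 23 were higher, against 26.0%, and 2 were lower, SNHG14 and DANCR, against 27.9%. With vancomycin against iohexol 12 were higher, against 29.0%, and 8 were lower, against 27.6%. SNHG9, a host near the floor, is among the higher hosts in these comparisons with iohexol. Its call held in 18 of 20 alternatives with cisplatin and in 9 of 20 with vancomycin. Without cisplatin replicate 1, SNHG14 alone was lower with cisplatin than with iohexol. SNHG18 was not called in any of these pairs.

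Among the box C/D hosts, GAS5 (chr1:173863900-173868882, minus strand, GRCh38) was counted at 181, 174 and 160 CPM in the control samples, at 140, 136 and 135 CPM with iohexol, at 172, 178 and 182 CPM with cisplatin and at 258, 343 and 303 CPM with vancomycin. All vancomycin samples lay above and all iohexol samples below the control samples, while the cisplatin samples overlapped them. The log2 fold change was 0.77 ± 0.10 (adjusted p = 3.46e-07) with vancomycin and -0.31 ± 0.09 (adjusted p = 0.0243) with iohexol. The iohexol call held in 9 of 15 alternatives. It was lost under scaling by library size only (-0.24, adjusted p = 0.0637) and without control replicate 1 (adjusted p = 0.0841), without control replicate 2 (0.109), without iohexol replicate 1 (0.0540) and without iohexol replicate 2 (0.0805), with log2 fold changes of -0.33 to -0.27. Vancomycin against iohexol gave the widest gap, 1.14 ± 0.09. The antisense gene GAS5-AS1 was at 0.462 to 0.666 CPM in the 4 group means.

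ZFAS1 (chr20:49278178-49295738, plus strand), the host of SNORD12, SNORD12B and SNORD12C whose start and snoRNA are shown above, was at 32.6, 26.7 and 33.7 CPM in the control samples, at 31.2, 33.6 and 34.6 CPM with iohexol, at 30.1, 30.4 and 29.3 CPM with cisplatin and at 51.1, 62.1 and 44.96 CPM with vancomycin. It rose only with vancomycin among the 3 drugs, by 0.72 ± 0.12 (adjusted p = 2.18e-05), and also lay above the iohexol group (0.67 ± 0.12) and the cisplatin group (0.82 ± 0.12) in the direct comparisons. ZNFX1, which overlaps it on the other strand, was called with cisplatin (0.46) and not with vancomycin (-0.07).

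SNHG5 (chr6:85660950-85678748, minus strand), the host of SNORD50A and SNORD50B, was at 18.7, 17.8 and 15.6 CPM in the control samples, at 22.8, 20.02 and 23.3 CPM with iohexol, at 23.8, 22.8 and 30.5 CPM with cisplatin and at 44.7, 62.9 and 51.4 CPM with vancomycin. No drug sample overlapped the control samples, and the vancomycin samples lay above all others. The changes were 1.57 ± 0.13 with vancomycin (adjusted p = 2.31e-10), 0.57 ± 0.12 with cisplatin (adjusted p = 6.71e-04) and 0.36 ± 0.13 with iohexol, which was not called (adjusted p = 0.0613).

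SNHG6, the host of SNORD87, was at 50.5, 55.2 and 50.1 CPM in the control samples, at 59.6, 48.9 and 48.2 CPM with iohexol, at 51.6, 60.8 and 49.8 CPM with cisplatin and at 83.2, 113 and 86.6 CPM with vancomycin. The vancomycin samples stood apart from the other 3 groups, which overlapped each other, and the change was 0.81 ± 0.11 (adjusted p = 6.90e-07). MCMDC2, which overlaps SNHG6 on the other strand, went the other way with vancomycin (-1.24) and was counted at 3.20 to 7.33 CPM in the group means.

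SNHG16 (chr17:76557766-76565348, plus strand), the host of SNORD1A, SNORD1B and SNORD1C, was higher with cisplatin and lower with vancomycin. It was at 65.7, 66.2 and 66.3 CPM in the control samples, at 49.9, 54.1 and 59.7 CPM with iohexol, at 89.5, 85.5 and 88.5 CPM with cisplatin and at 36.4, 47.1 and 45.2 CPM with vancomycin. Neither the cisplatin nor the vancomycin samples overlapped any other group, and all iohexol samples lay below the controls without a call (-0.26 ± 0.10, adjusted p = 0.0773). The changes were 0.41 ± 0.07 with cisplatin (adjusted p = 3.82e-05) and -0.67 ± 0.11 with vancomycin (adjusted p = 8.11e-06). The overlapping gene AC015802.6 did not exceed 0.200 CPM in any group mean.

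SNHG26 (chr7:22854178-22861579, plus strand), the host of SNORD93 with no exonic base overlapped by another gene, showed the same opposite directions at a low level. It was at 2.32, 2.45 and 2.76 CPM in the control samples, at 1.796, 1.86 and 2.27 CPM with iohexol, at 7.33, 8.68 and 7.86 CPM with cisplatin and at 0.501, 1.35 and 0.431 CPM with vancomycin. The 4 groups did not overlap. The log2 fold change was 1.66 ± 0.18 with cisplatin (adjusted p = 3.73e-07), while the difference with iohexol did not pass the test (-0.33 ± 0.25). With vancomycin the fitted change was -1.78 ± 0.39, from 8, 20 and 7 counts. SNHG26 passed the filter of that fit only together with the control samples, where it was high. Its vancomycin values are therefore a description, and no conclusion is drawn from that call. Without vancomycin replicate 2 the vancomycin change was -2.44.

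Among the box H/ACA hosts, DANCR (chr4:52712404-52720351, plus strand), the host of SNORA26, was at 26.1, 22.0 and 22.95 CPM in the control samples, at 38.5, 38.6 and 39.3 CPM with iohexol, at 28.3, 32.0 and 31.7 CPM with cisplatin and at 22.2, 27.2 and 27.04 CPM with vancomycin. The iohexol samples were the highest and lay close together, the cisplatin samples came next, and the vancomycin samples overlapped the controls. The changes were 0.73 ± 0.11 with iohexol (adjusted p = 6.92e-04) and 0.37 ± 0.10 with cisplatin (adjusted p = 0.00383). DANCR was lower with cisplatin than with iohexol (-0.34 ± 0.11, adjusted p = 0.00968), a call lost under scaling by library size only (-0.21, adjusted p = 0.0882) and without cisplatin replicate 1 (-0.28, adjusted p = 0.0616), and lower with vancomycin than with iohexol (-0.61 ± 0.11, adjusted p = 6.43e-05). The pseudogene AC104066.1, which overlaps DANCR on the other strand, did not exceed 0.830 CPM in any group mean.

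EPB41L4A-AS1 (chr5:112160526-112164276, plus strand), the host of SNORA13, was at 9.79, 9.47 and 11.9 CPM in the control samples, at 11.3, 11.9 and 10.49 CPM with iohexol, at 9.76, 7.94 and 8.80 CPM with cisplatin and at 12.6, 17.9 and 19.8 CPM with vancomycin. The vancomycin samples lay above all others, with replicate 1 closest to the control range, and the change was 0.65 ± 0.16 (adjusted p = 0.00125). EPB41L4A on the other strand was at 0.169 to 0.826 CPM in the group means.

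SNHG4 (chr5:139274102-139284899, plus strand), the host of SNORA74A and SNORA74D, was at 30.98, 28.9 and 29.6 CPM in the control samples, at 32.0, 29.2 and 32.7 CPM with iohexol, at 43.1, 39.5 and 44.0 CPM with cisplatin and at 12.0, 11.1 and 9.73 CPM with vancomycin. Cisplatin samples lay above and vancomycin samples below all control and iohexol samples, with changes of 0.50 ± 0.08 (adjusted p = 7.08e-05) and -1.49 ± 0.13 (adjusted p = 4.73e-10). SIL1, which overlaps SNHG4 on the other strand, went the opposite way, at -1.57 with cisplatin and 0.44 with vancomycin, and was also lower with iohexol (-0.56).

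SNHG9 (chr16:1964959-1965509, plus strand), the host of SNORA78, was counted near the floor, and with 1 control sample at 0 it passed the filter only together with drug samples. It was at 0.798, 0.878 and 0 CPM in the control samples, at 0.691, 0.256 and 0.869 CPM with iohexol, at 1.70, 1.66 and 2.30 CPM with cisplatin and at 1.63, 1.15 and 1.85 CPM with vancomycin. The cisplatin and vancomycin samples lay above the controls, of which replicate 3 had no count. The fitted changes were 1.75 ± 0.52 with cisplatin and 1.42 ± 0.54 with vancomycin. Both passed the limits of a DEG, but SNHG9 entered these fits only together with the groups where it was high. Its values are therefore a description, and no conclusion is drawn from the calls. Without control replicate 3 the cisplatin change was 1.15. The vancomycin call was lost without control replicate 3 (0.82, adjusted p = 0.133), without vancomycin replicate 1 (1.38, adjusted p = 0.0660) and without vancomycin replicate 3 (1.27, adjusted p = 0.0872). DESeq2 called neither, with adjusted p = 0.158 and 0.276, and limma-voom gave larger changes of 2.72 and 2.38.

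SNHG12 (chr1:28578538-28583132, minus strand), which holds both classes with SNORD99, SNORA16A, SNORA44 and SNORA61, was at 38.0, 40.9 and 46.6 CPM in the control samples, at 29.9, 26.7 and 26.1 CPM with iohexol, at 42.2, 44.0 and 47.0 CPM with cisplatin and at 39.5, 62.5 and 49.3 CPM with vancomycin. All iohexol samples lay below every other sample, with a change of -0.59 ± 0.12 (adjusted p = 0.00390), and the other groups overlapped. The vancomycin change was not called (0.22 ± 0.13, adjusted p = 0.141) but was without vancomycin replicate 1 (0.38, adjusted p = 0.0158). TRNAU1AP, an overlapping gene on the other strand, was higher with vancomycin (0.90).

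SNHG20 and SNHG10 are hosts of the scaRNAs SCARNA16 and SCARNA13. SNHG20 (chr17:77086716-77099902, plus strand) was at 5.37, 4.52 and 6.51 CPM in the control samples, at 9.74, 8.95 and 9.16 CPM with iohexol, at 10.7, 9.67 and 11.6 CPM with cisplatin and at 2.25, 3.78 and 3.70 CPM with vancomycin. The iohexol and cisplatin samples lay above and the vancomycin samples below the controls, with changes of 0.78 ± 0.17 (adjusted p = 0.00761), 0.96 ± 0.16 (adjusted p = 4.78e-05) and -0.80 ± 0.24 (adjusted p = 0.00615). SEC14L1, which overlaps SNHG20 on the same strand and is far more abundant (309 CPM in the control group), moved alike with iohexol (0.53) and vancomycin (-1.36) but was not called with cisplatin (-0.07). SNHG10 (chr14:95532297-95534872, minus strand) was at 2.47, 2.57 and 2.37 CPM in the control samples, at 3.32, 3.26 and 2.27 CPM with iohexol, at 5.21, 7.63 and 4.49 CPM with cisplatin and at 1.38, 3.65 and 3.20 CPM with vancomycin. Only the cisplatin samples stood apart from the controls, by 1.22 ± 0.23 (adjusted p = 1.69e-04). GLRX5 on the other strand, at 29.1 CPM in the control group, was also higher with cisplatin (0.50) and with vancomycin (0.41).

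**Figure D3:**
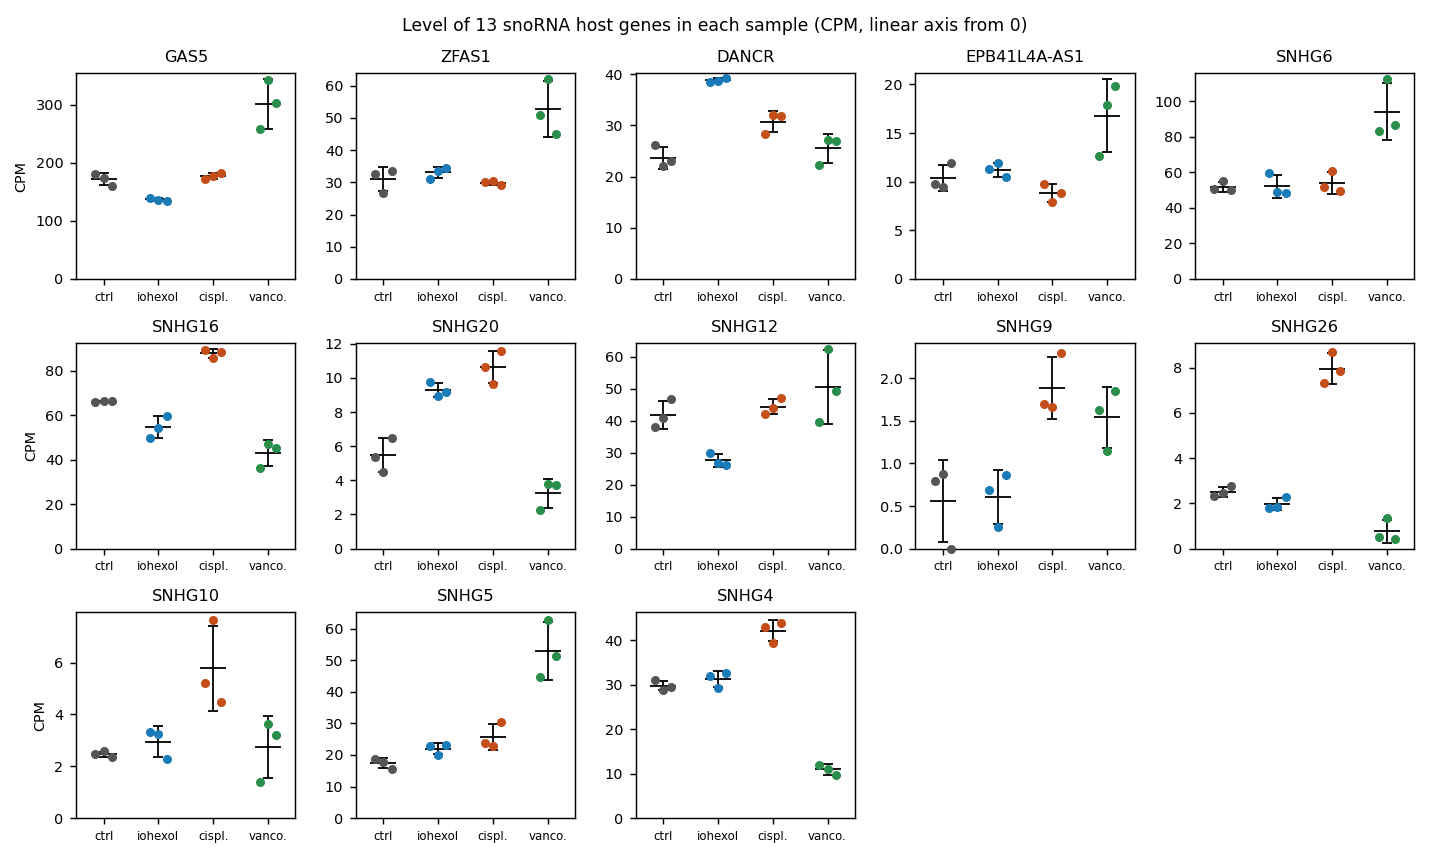
Each panel shows 1 host, with the level in CPM on a linear axis from 0, a point for each sample and the mean with SD of the 3 samples of a group. Vancomycin points lie above all others for GAS5, ZFAS1, EPB41L4A-AS1, SNHG5 and SNHG6, and below all others for SNHG4, SNHG16, SNHG20 and SNHG26.

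SNHG17, the host of the SNORA71 family, was the only host called higher with each of the 3 drugs, with log2 fold changes of 0.36 ± 0.11 with iohexol (adjusted p = 0.0362), 1.07 ± 0.08 with cisplatin (adjusted p = 6.82e-09) and 0.98 ± 0.11 with vancomycin (adjusted p = 4.72e-08). It was at 24.9, 22.8 and 23.9 CPM in the control samples and at 31.4, 29.8 and 29.3 CPM with iohexol, without overlap, and the group means were 50.1 CPM with cisplatin and 48.4 CPM with vancomycin. The iohexol call held in 8 of 15 alternatives. It was lost with no filter, with the replicate number as a block (0.36, adjusted p = 0.125) and without any 1 of the control samples or of iohexol replicates 1 and 2. Over the alternatives the log2 fold change was 0.31 to 0.43, with adjusted p up to 0.188. SNHG17 was not called between vancomycin and cisplatin (-0.05 ± 0.09), but was lower with vancomycin under scaling by library size only (-0.39, adjusted p = 7.68e-04). SNHG17 and SNHG7, the host of SNORA17A and SNORA17B, were outside the rule for genes given in every sample and are named for their changes. SNHG7 was at 26.8, 33.4 and 32.0 CPM in the control samples, 53.7, 52.7 and 62.3 CPM with cisplatin and 51.2, 66.6 and 62.3 CPM with vancomycin, so that both drug groups lay above the controls and overlapped each other. FAM69B on its other strand was at 2.45 to 3.78 CPM in the group means and was not called with any drug.

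Grouped by the start features printed above, 5 of the 6 hosts with TATAA were higher with vancomycin and SNHG12 was not called, with a median log2 fold change of 0.82, and the 14 tested hosts whose matched promoter lacked it had 3 higher and 6 lower calls and a median of -0.03, where 29.0% of all genes were higher and 28.8% lower. With cisplatin 2 of the 6 were higher, against 9 higher and 1 lower of the 14 and 29.2% higher and 30.6% lower of all genes, and with iohexol SNHG12 was lower, against 3 higher and 1 lower of the 14 and 11.2% and 9.77% of all genes. For the tract at the start, 3 of 6 hosts were higher and 1 lower with vancomycin, SNHG4, against 5 higher and 5 lower of 14. These groupings were made with the values known and were not tested.

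The count table also lists snoRNA and scaRNA genes, and 137 of its rows lay within a host on the same strand. All 41 rows that lay wholly within annotated exons of their host, and 3 that lay partly within them, had 0 counts in all samples, while 53 of the 93 rows outside exons were at 0. Only 6 rows held at least 100 counts over the 12 samples, and in these poly(A)-selected libraries they do not measure the mature snoRNAs as a whole. SNORA71C in SNHG17 had 8, 13 and 23 counts in the control samples, 15, 15 and 8 with iohexol, 57, 51 and 62 with cisplatin and 11, 12 and 18 with vancomycin. The counts with cisplatin lay above those of all other samples. SNORA71A in the same host had 5, 5 and 17 counts in the control samples and 14, 34 and 25 with cisplatin, and SNORA71B had 1, 9 and 16 and 42, 28 and 15, so that the samples of both overlapped. These copies are alike in sequence, and the split of reads between them is uncertain. With vancomycin SNORA71C was not called (-0.20 ± 0.44), whereas its host SNHG17 was. SNORA73B in SNHG3 had 29, 20 and 31 counts in the control samples and 15, 10 and 8 with vancomycin. SNORD99 in SNHG12 had 5, 8 and 7 counts in the control samples and 24, 25 and 28 with vancomycin. SNORD104 in SNHG25, a host too low to be tested, had 2, 8 and 4 counts in the control samples and 15, 35 and 34 with vancomycin. SNORA71A, SNORA71B and SNORA71C with cisplatin, and SNORD99 and SNORD104 with vancomycin, passed the filter on low counts through the group where they were high. Their values there are therefore a description, and no test is given for them.

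Other genes of the snoRNA and TOP pathways are given for comparison by their counts of calls, without a test of the lists. Of all genes tested 29.2% were higher and 30.6% lower with cisplatin, 29.0% and 28.8% with vancomycin, and 11.2% and 9.77% with iohexol. Of 81 cytosolic ribosomal protein genes tested, which carry the 5′ TOP tract and many of which host snoRNAs, 65 were higher and 2 lower with vancomycin (median log2 fold change 0.79), 1 was higher and 61 lower with iohexol (-0.44), and 12 were higher and 31 lower with cisplatin (-0.08). The largest changes were those of RPS23 (4.62) and RPL30 (2.44) with vancomycin, of RPS12 (-0.67) and RPL38 (-0.64) with iohexol, and of RPL3 (-1.15) and RPS10 (0.92) with cisplatin. Ribosomal protein genes have many processed pseudogenes, so that their counts are uncertain.

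Among 20 snoRNP proteins and assembly factors, which package and mature snoRNAs, 7 were higher (35.0%, against 29.2% of all genes) and 2 lower (10.0%, against 30.6%) with cisplatin, 4 higher (against 29.0%) and 11 lower (55.0%, against 28.8%) with vancomycin, and 0 higher and 7 lower (35.0%, against 9.77%) with iohexol, where edgeR's test at an unadjusted p under 0.05 gave 0 higher and 10 lower and DESeq2 and limma-voom also called 0 higher. NOLC1, a chaperone of snoRNPs in the nucleolus, was at 341 CPM in the control group, and its changes were 0.61 with cisplatin, -0.72 with vancomycin and -0.47 with iohexol. NOP10 was higher with cisplatin (0.53) and vancomycin (0.68), NHP2 was higher with vancomycin (0.97) and RUVBL2 was lower with iohexol (-0.57). Among 16 nonsense-mediated decay factors, 9 were higher (56.2%) and 3 lower (18.8%) with cisplatin, led by SMG6 (-1.01), the endonuclease of the pathway, and SMG8 (0.65). With vancomycin 5 were higher and 5 lower, 31.2% each and near the shares of all genes, among them MAGOH (1.14), of the exon junction complex, and PNRC2 (-0.59), and with iohexol SMG5 was higher (0.26) and PNRC2 lower (-0.37). Among 16 regulators of TOP mRNAs in the mTOR pathway, 4 were higher (25.0%, against 29.2% of all genes) and 8 lower (against 30.6%) with cisplatin, with DDIT4, an inhibitor of mTOR complex 1, at -1.99 and RPTOR at -0.96. With vancomycin 6 were higher (37.5%) and 4 lower (25.0%), with EIF4EBP1 at 1.08 and TSC1 at 0.74, and with iohexol edgeR's test called 0 of the 16, with 3 higher and 1 lower at an unadjusted p under 0.05. DESeq2 called 1 of them higher with iohexol and limma-voom called 0.

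Of the protein-coding snoRNA hosts other than ribosomal protein genes, 36 of 184 were higher (19.6%, against 29.2% of all genes) and 80 lower (43.5%, against 30.6%) with cisplatin, 39 of 185 higher (21.1%, against 29.0%) and 87 lower (47.0%, against 28.8%) with vancomycin, and 13 of 183 higher (7.10%, against 11.2%) and 33 lower (18.0%, against 9.77%) with iohexol. The other lncRNA genes tested had 636 higher (35.9%) and 177 lower (9.99%) of 1771 with cisplatin, with a median log2 fold change of 0.42. They had 222 higher (14.1%) and 348 lower (22.1%) of 1577 with vancomycin, with a median of -0.16, and 188 higher (11.7%) and 34 lower (2.12%) of 1603 with iohexol, with a median of 0.22. The median of the hosts with cisplatin, 0.41, thus lay close to that of the other lncRNA genes. With vancomycin the hosts' median of 0.16 was above that of the other lncRNA genes by about its SD over the replicates, 0.302, and it ran from 0.051 to 0.403 when 1 sample was left out.

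**Figure D4:**
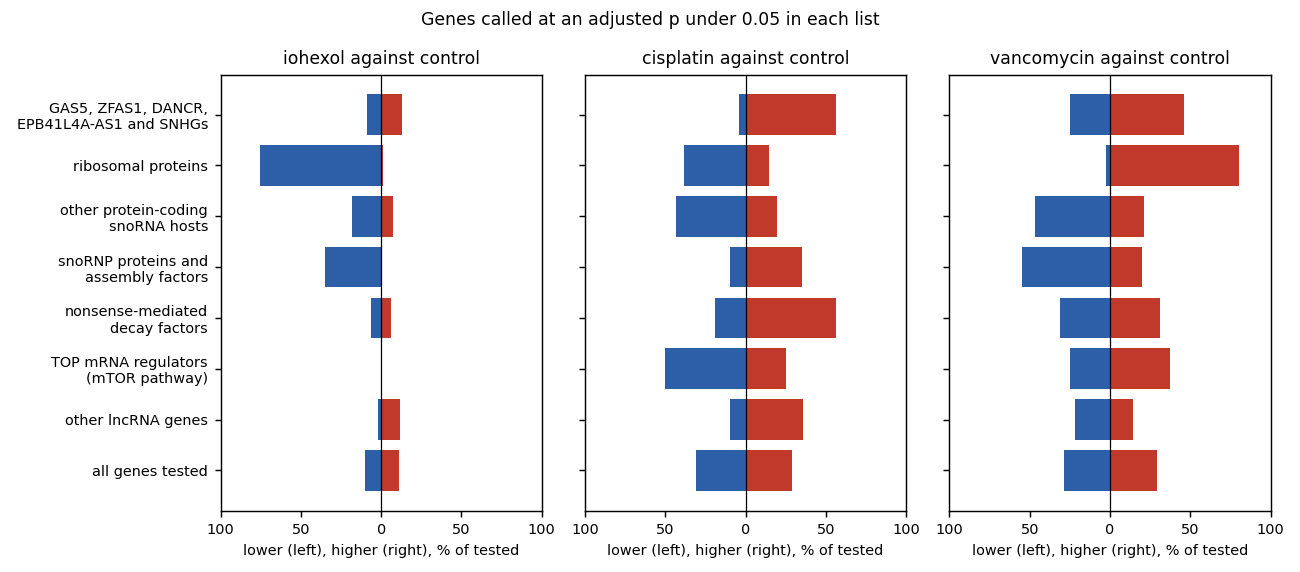
Bars give the percent of tested genes called higher (red, to the right) and lower (blue, to the left) with each drug against the control group, for the snoRNA hosts described, the lists set beside them and all genes tested. Ribosomal protein genes stand at 75.3% lower with iohexol and 80.2% higher with vancomycin, and the hosts at 56.5% higher with cisplatin.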

How the data were processed

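The deposited table held whole-number counts of reads per gene without normalization, which the authors made from poly(A)-selected NEBNext libraries of 12 samples. Gene lengths (other, in bases) were deposited with them. The submitters' processing notes name CASAVA 1.8, fastp, HISAT2 2.0.5, featureCounts 1.5.0-p3 and DESeq2 1.20.0. The build and the strand setting are not given in the sources used here, but all 58735 genes had the positions of GENCODE release 29 on GRCh38.

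Every drug group was set against the controls in its own fit of 3 against 3 samples with edgeR 4.0.16 in R 4.3.3: TMM factors, filterByExpr (minimum count 10, total 15), glmQLFit and glmQLFTest, with Benjamini-Hochberg adjustment over all genes tested. Contrasts between drugs came from a model of all 4 groups. SE was the size of the log2 fold change divided by the square root of F. The steps were tested on simulated data. Values in every sample are given for the hosts named outright in the rule, the 3 most abundant and, for each drug, the 3 called hosts with the largest change whose samples did not overlap the controls. In the lists of ribosomal protein, snoRNP, nonsense-mediated decay and mTOR pathway genes, called genes with the largest changes were named. No gene was named for the protein-coding snoRNA hosts or the other lncRNA genes. The genes, the lists, the groupings and the alternatives were chosen with earlier results of these data known.

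Alternatives were DESeq2 1.42.0, limma-voom (limma 3.58.1), RLE or upper quartile factors, library size only, no filter, 10 counts in every sample, a fit of all 4 groups (for 2 drugs, of these alone), the replicate number as a block, and leaving out each sample. Promoter sequences came from RefSeq (GRCh38.p14). Figures were drawn with matplotlib 3.10.9. The values of 1 overlapping gene are not reported here.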

Additional observations from a re-analysis of the deposited data

How the results depend on the processing

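For the 15 counts and medians over the hosts, 246 of the values under alternatives kept within 1.5 times the reported count, or within the spread between replicates of the reported median, and 15 did not. With vancomycin that spread, an SD of 0.302, was larger than the median of 0.16 itself, so that few values could have fallen outside it. Library size only gave 5 hosts higher and 1 lower with iohexol, a median of 0.627 with cisplatin and 1 host lower with cisplatin than with iohexol, and 7 DEGs with cisplatin in place of 4. Upper quartile factors gave 5 hosts higher with iohexol and a median of 0.456 with cisplatin. It changed the call of no host to the opposite sign, and neither did library size only or RLE factors. Leaving out 1 sample, the counts with iohexol ran from 2 to 5 higher and from 1 to 3 lower, the median from 0.014 to 0.087, and the counts with cisplatin were 13 higher in each fit and 1 to 2 lower, with a median of 0.342 to 0.434. With vancomycin they were 10 to 11 higher and 6 lower, with a median of 0.051 to 0.403. Cisplatin against iohexol gave 10 to 13 higher and 1 to 3 lower, vancomycin against iohexol 11 to 12 higher and 7 to 8 lower, and vancomycin against cisplatin 8 to 9 higher and 9 to 10 lower.

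The signs that turned were all of hosts not called in that comparison, 24 over the 6 comparisons. Among the 13 hosts given in every sample, over the fits without 1 sample, the log2 fold change with iohexol ran from -0.001 to 0.157 for ZFAS1, from -0.084 to 0.084 for SNHG6 and from -0.476 to 0.629 for SNHG9, that with cisplatin from -0.018 to 0.078 for GAS5 and from -0.037 to 0.116 for SNHG6, and that with vancomycin from -0.141 to 0.429 for SNHG10. In other alternatives SNHG6 turned with iohexol and no filter (-0.012), ZFAS1 with cisplatin and library size only (0.165), DANCR with vancomycin and library size only (-0.013), and SNHG10 with vancomycin and limma-voom (-0.016). Of the other hosts SNHG1, SNHG8 and SNHG14 turned with iohexol, SNHG11 with vancomycin and SNHG18 with each drug. The cause was not tested. Library size only shifted the median of all genes by 0.218 with cisplatin, by 0.071 with iohexol and by -0.076 with vancomycin against control, and by 0.127, -0.207 and -0.335 for cisplatin against iohexol, vancomycin against iohexol and vancomycin against cisplatin. In the last of these it called 6 hosts higher and 11 lower, with 33.6% of all calls higher against 53.6%. For cisplatin against iohexol it called 16 and 1, with 58.8% against 48.2%, and for vancomycin against iohexol 11 and 8, with 34.4% against 51.3%.

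The replicate numbers in the labels did not pair the samples: same-numbered samples had a mean correlation of -0.0209 over 18 pairs, against 0.0106 over the other 36. With the replicate number as a block, 2 hosts were higher and 1 lower with iohexol, the calls of GAS5 (adjusted p = 0.0994) and SNHG17 being lost, 13 were higher and 1 lower with cisplatin, and 11 higher and 6 lower with vancomycin. Hosts under 3 CPM in the control group, such as SNHG9, SNHG10, SNHG19 and SNHG26, rest on few counts, and the 3 samples a group limit what small changes could be called.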
